A study of Mus musculus with 10 samples.

Results

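Cortical interneuron subtype markers are genes whose transcripts separate the inhibitory neurons of the cerebral cortex by lineage and class. Those examined were Lhx6, Sox6, Pvalb, Prox1, Adarb2, Calb2, Reln, Dlx1, Dlx6 and Erbb4. The list was set by gene name, with earlier results of these data known. They were 10 of the 14276 genes in the deposited count table, found by Ensembl identifier through the GENCODE M21 annotation of the mouse GRCm38 genome, and all 10 were measured and tested.

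The study measured ribosomal RNA-depleted total RNA of cerebral cortex from C57BL/6 mice aged 3 months, in 5 control libraries and 5 libraries labelled BrapcKO. Brap encodes a RING-domain protein that binds BRCA1. In the control group, libraries 08, 22 and 23 were Brap flox/wt and 09 and 24 were Brap flox/flox, all without Cre. In the group labelled BrapcKO, libraries 04, 07 and 21 were Brap flox/ko and 05 and 06 were Brap flox/flox, all with Cre. Cre was therefore present in every BrapcKO library and in no control library, and loss of Brap and presence of Cre cannot be told apart. The labels name no promoter for Cre, so which cells of the cortex would lose Brap is not known here. The library titles carry a code, B1 or B2, with no stated meaning. B1 holds control 08 and 09 and BrapcKO 04, 05, 06 and 07, and B2 holds control 22, 23 and 24 and BrapcKO 21. Nothing in the labels says that the libraries of a group came from separate animals, and p-values here rest on library-to-library spread, which may be technical.

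Total counts ran from 17188901 to 20955211 in B1 and from 26356508 to 28991874 in B2. The targeted gene did not have a lower count in BrapcKO. Brap was at 88.4 ± 8.58 CPM (SD, n = 5; counts as CPM, scaled to a common library total with TMM factors) in control and 104 ± 9.16 (n = 5) in BrapcKO, with all exons counted together. The log2 fold change was 0.23 (SE 0.0962, adjusted p = 0.182), and in flox/ko Cre+ against flox/wt Cre- Brap was called higher (0.39, adjusted p = 0.0402), while in the flox/flox pair it was at -0.04 (adjusted p = 0.921). The labels do not name the deleted exons. A count over all exons gives no support to the labels, but it cannot test the loss of single exons. Directions below are those of the labels. Ddx3y, a Y-chromosome gene, was high in control 23 and in BrapcKO 05, 06, 07 and 21 and near 0 in the rest, so the groups also differ in their number of Y-bearing libraries.

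Cortical inhibitory neurons use GABA as transmitter and are born outside the cortex, in the ganglionic eminences of the embryonic ventral forebrain, from which they migrate. The medial eminence gives rise to the parvalbumin and somatostatin classes under the homeodomain factor Lhx6 and the HMG-box factor Sox6, and the caudal eminence to the Vip, Lamp5 and most reelin-expressing classes, in which Prox1 and Adarb2 are found. The Dlx homeodomain factors act in the progenitors of both lineages, and the receptor ErbB4 is carried by many of the mature cells.

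Of the 10 markers, Dlx6 alone passed the test between groups, and it was higher in BrapcKO. The test was edgeR's quasi-likelihood test in a model of title code and group, with p-values adjusted over all 14276 genes, with 0.05 as the threshold. That is 1 of 10 markers, against 8.07% of all genes. Without the title code no marker passed (0 of 10), against 4.32% of all genes. At an unadjusted p under 0.05 of the same test, 2 of 10 markers and 3166 of 14276 genes were counted with the title code. Without it these were 0 of 10 markers and 2641 of 14276 genes. The median log2 fold change of the 10 was 0.01, and that of all genes was 0.01. No marker had all 5 BrapcKO libraries on one side of all 5 control libraries, against 6.82% of all genes. The plot of the 10 markers by library shows this overlap. In bulk tissue, fewer cells of a class and less RNA per cell cannot be told apart.

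**Figure D1:**
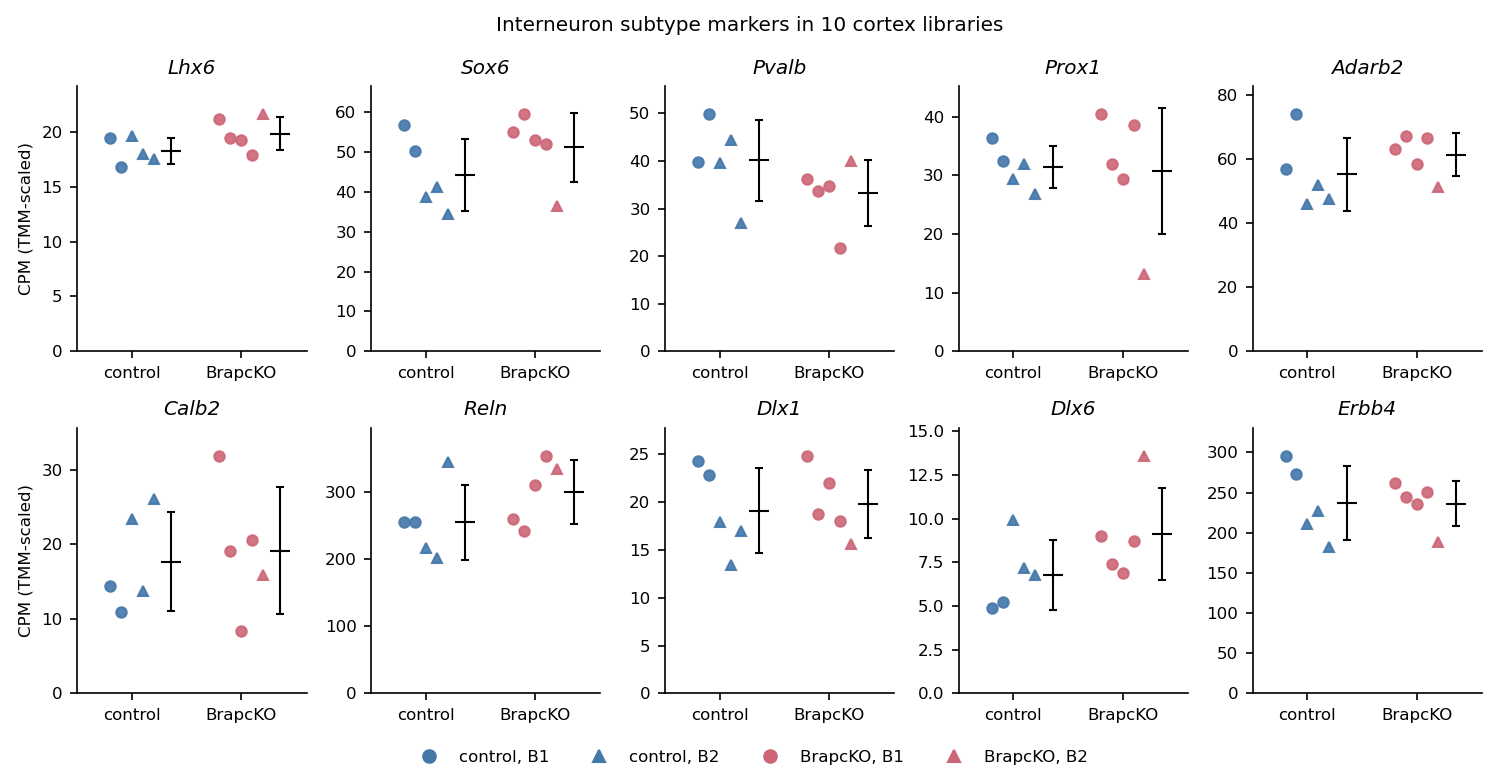
Level of each marker in CPM scaled by TMM factors (vertical axis, from 0) in the 5 control and 5 BrapcKO libraries (horizontal axis); each point is a library, circles are B1, triangles are B2, and bars are the mean and SD. The groups overlap for every marker, and the B2 points of Sox6, Adarb2, Dlx1 and Erbb4 lie below the B1 points.

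Levels between genes were compared per kilobase of exon. Pvalb had the highest level in control, 38.5 CPM per kb (SD 8.12, n = 5), followed by Erbb4 at 19.2 (SD 3.73), Reln at 10.7 (SD 2.33) and Calb2 at 10.2 (SD 3.81). The other 6 lay close together: Adarb2 at 4.22, Lhx6 at 3.80, Prox1 at 3.74, Dlx1 at 3.54, Sox6 at 2.98 and Dlx6 at 2.86 CPM per kb. Ranges over the 5 control libraries did not overlap between Pvalb and Erbb4, between Erbb4 and Reln, or between Calb2 and Adarb2. They overlapped between Reln and Calb2 and between each successive pair from Adarb2 down to Dlx6, so the order within those stretches is not fixed by these data.

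Lhx6 and Sox6 are the transcription factors of the medial eminence lineage, kept on in the mature cells, and Pvalb encodes parvalbumin, the calcium-binding protein of fast-spiking basket and chandelier cells. Lhx6 (ENSMUSG00000026890.19, minus strand, chr2:36081953-36105408) was the steadiest of the 10. It had 19.4, 16.8, 19.6, 17.9 and 17.5 CPM in control 08, 09, 22, 23 and 24, and 21.1, 19.4, 19.2, 17.8 and 21.6 CPM in BrapcKO 04, 05, 06, 07 and 21. The groups overlapped, with BrapcKO 04 and 21 above every control library. BrapcKO against control, the log2 fold change was 0.15 (SE 0.093, 95% interval -0.05 to 0.35, adjusted p = 0.388).

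Sox6 (ENSMUSG00000051910.13, minus strand, chr7:115470872-116038796) was divided by title code and not by group. Its B1 libraries had 56.7 and 50.1 CPM in control and 54.9, 59.4, 53.0 and 51.9 CPM in BrapcKO. Its B2 libraries had 38.6, 41.3 and 34.3 CPM in control and 36.5 CPM in BrapcKO 21. Control and BrapcKO overlapped inside each code, and the group effect with the code as a term was 0.00 on the log2 scale (SE 0.0858, interval -0.18 to 0.19).

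Pvalb (ENSMUSG00000005716.16, minus strand, chr15:78191114-78206400) had 39.8, 49.8, 39.6, 44.5 and 26.9 CPM in control 08, 09, 22, 23 and 24. It had 36.1, 33.6, 34.7, 21.8 and 40.0 CPM in BrapcKO 04, 05, 06, 07 and 21. Control 24 and BrapcKO 07 were the low libraries of their groups, and the groups overlapped. Its log2 fold change was -0.27 (SE 0.187, interval -0.68 to 0.13, adjusted p = 0.432), so a fall of that size was not separated from no change. Within B1 all 4 BrapcKO libraries lay below both control libraries (log2 fold change -0.51, adjusted p = 0.285), and within B2 BrapcKO 21 lay inside the control range (0.11).

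Prox1 and Adarb2 mark the caudal eminence lineage. Prox1 is a homeodomain transcription factor that those interneurons keep into adulthood and that granule cells of the dentate gyrus also express, and Adarb2 encodes a catalytically inactive member of the adenosine deaminase family that acts on RNA. Prox1 (ENSMUSG00000010175.13, minus strand, chr1:190118035-190170714) had 36.4, 32.5, 29.3, 32.0 and 26.8 CPM in control 08, 09, 22, 23 and 24. It had 40.4, 31.9, 29.5 and 38.5 CPM in BrapcKO 04, 05, 06 and 07 and 13.2 CPM in BrapcKO 21. BrapcKO 21 was far below every other library, and the other 4 BrapcKO libraries spanned the control values.

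The log2 fold change of Prox1 was -0.37 (SE 0.204, interval -0.81 to 0.08, adjusted p = 0.325), and without BrapcKO 21 it was 0.02. Within B1 it was 0.03 (adjusted p = 0.955). Within B2 the value was -1.15 (SE 0.203, adjusted p = 0.0228), where 1.61% of all genes passed; BrapcKO 21 is the only BrapcKO library there and its spread is assumed from the others, so this value and the deviation of that 1 library cannot be told apart. No marker was called within B1, against 2.76% of all genes. At an unadjusted p under 0.05 in edgeR, 2 of 10 markers (Dlx6 and Pvalb) were counted there, against 2347 of 14276 genes. The difference between the codes in the effect on Prox1 was -1.18 (SE 0.244, adjusted p = 0.275) in edgeR. The adjusted p of that difference was 0.00829 in DESeq2 and 0.41 in limma-voom. Over all genes the interaction of group and title code called 0 of 14276 (0%; 1069 at an unadjusted p under 0.05) in edgeR, 31 in DESeq2 and 0 in limma-voom. The plot of effects within each code shows Prox1 at the lowest value in B2, with an interval that overlaps that of Calb2.

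**Figure D2:**
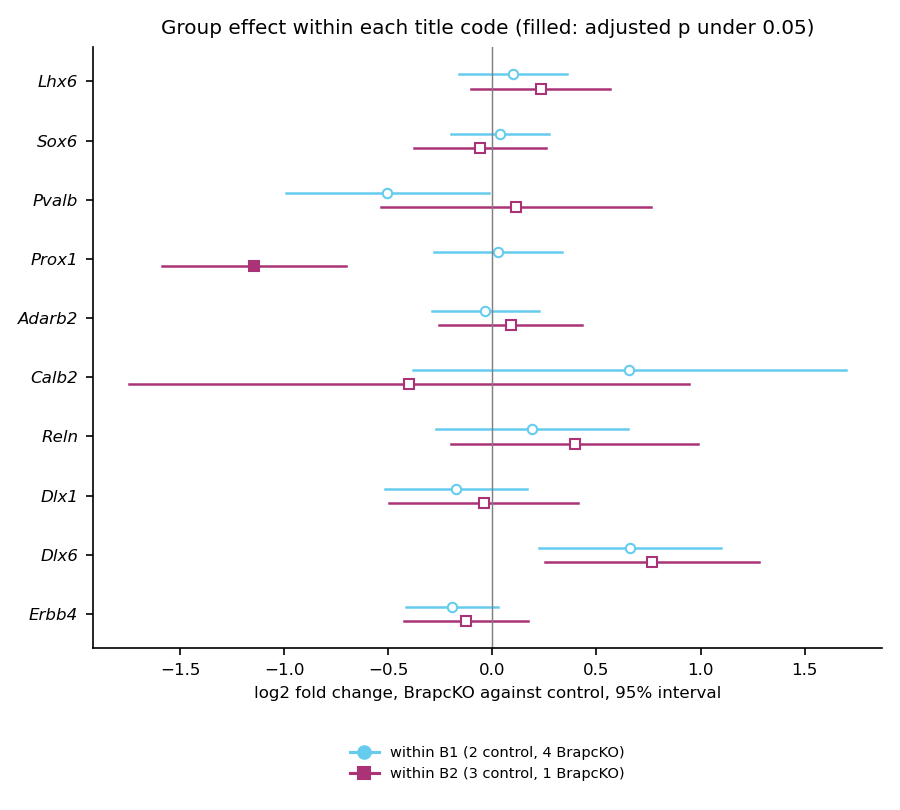
Log2 fold change of BrapcKO against control within B1 (circles, 2 control and 4 BrapcKO libraries) and within B2 (squares, 3 control and 1 BrapcKO library), with 95% intervals, one row a marker; a filled symbol has an adjusted p under 0.05. Prox1 within B2, at -1.15, is the only filled symbol, and Dlx6 lies above 0 in both codes.

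The level of BrapcKO 21 was also the lowest for a fixed list of 6 other dentate granule cell genes (Dsp, C1ql2, Plk5, Tdo2, Lct and Dock10). Their summed level was 99.1 CPM in BrapcKO 21 and 114.2 CPM in BrapcKO 06, below the control range of 136.3 to 146.5 CPM, and 146.9, 147 and 154.4 CPM in BrapcKO 04, 05 and 07, above it. None of the 6 was at 0 in all libraries, and 1 of the 6, C1ql2, rose (log2 fold change 1.02, adjusted p = 0.0197). Their median log2 fold change was -1.04, and none fell in edgeR with title code and group as terms. In some other edgeR fits 1 fell, among them the fit with group only and that without control 08. Of the 6, 4 fell in DESeq2 and 3 in limma-voom. The part of dentate gyrus tissue in the Prox1 values was not tested.

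Adarb2 (ENSMUSG00000052551.16, plus strand, chr13:8202866-8768747) had 57.0, 74.0, 46.0, 51.9 and 47.6 CPM in control 08, 09, 22, 23 and 24. It had 63.2, 67.5, 58.6, 66.8 and 51.5 CPM in BrapcKO 04, 05, 06, 07 and 21. All B1 libraries lay above all B2 libraries, and with the code as a term the group effect was 0.01 on the log2 scale (SE 0.0925, interval -0.19 to 0.21). The catalytically active deaminases Adar and Adarb1 did not pass either (0 of 2 in edgeR, also at an unadjusted p under 0.05, and 0 in DESeq2 or limma-voom), at -0.0587 and -0.00213 on the log2 scale.

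Calb2 encodes calretinin, a calcium-binding protein of bipolar Vip cells and of other interneurons, and Reln encodes reelin, an extracellular glycoprotein secreted in the adult cortex by neurogliaform and some somatostatin cells. Calb2 (ENSMUSG00000003657.9, minus strand, chr8:110137502-110168210) was the most variable of the 10. It had 14.4, 10.9, 23.5, 13.7 and 26.1 CPM in control 08, 09, 22, 23 and 24, and 31.8, 19.0, 8.31, 20.5 and 15.9 CPM in BrapcKO 04, 05, 06, 07 and 21. BrapcKO holds both the highest and the lowest library. Its log2 fold change was 0.28 with an interval of -0.62 to 1.18 (SE 0.403, adjusted p = 0.747), so changes of more than double in level lie within the interval. With the Y-linked score as a further term it was 0.91 (unadjusted p = 0.029, adjusted p = 0.258).

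Reln (ENSMUSG00000042453.14, minus strand, chr5:21884454-22344702) had 255, 254, 217, 202 and 345 CPM in control 08, 09, 22, 23 and 24. It had 259, 241, 311, 353 and 334 CPM in BrapcKO 04, 05, 06, 07 and 21. Control 24 was at the level of the highest BrapcKO libraries. BrapcKO 05 lay below control 08 and 09, so the groups overlapped also without control 24. Its log2 fold change was 0.27 (SE 0.159, interval -0.08 to 0.61, adjusted p = 0.362).

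By genotype, the fold change of Reln was -0.09 on the log2 scale in flox/flox Cre+ against flox/flox Cre- (adjusted p = 0.909) and 0.51 in flox/ko Cre+ against flox/wt Cre- (adjusted p = 0.115). The difference of -0.59 had an unadjusted p of 0.0422 and an adjusted p of 0.808. No gene passed for that difference in edgeR (0%; 873 of 14276 at an unadjusted p under 0.05), 37 passed in DESeq2 and 0 in limma-voom; no marker passed in any of them. Of the 7 genes fixed for reelin signalling, 0 passed between groups in edgeR (1, Dab1, at an unadjusted p under 0.05) and 0 in DESeq2 or limma-voom. They include the receptors Vldlr (log2 fold change -0.11) and Lrp8 (0.05) and the adaptor Dab1 (-0.26, adjusted p = 0.205). Reelin in the marginal zone is also made by Cajal-Retzius cells; of the 6 genes fixed for them Lhx1 and Lhx5 were absent from the table, and the other 4 summed to 2.19 to 5.09 CPM in control and 3.33 to 5.91 CPM in BrapcKO, with 0 called in edgeR (1 at an unadjusted p under 0.05), DESeq2 or limma-voom.

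Dlx1 and Dlx6 are distal-less homeodomain factors of the ganglionic eminences that act upstream of the GABA-synthesising enzymes. They lie on different chromosomes and moved in opposite directions between the title codes. Dlx1 (ENSMUSG00000041911.3, plus strand, chr2:71528113-71533981) had 24.27, 22.84, 17.91, 13.4 and 16.96 CPM in control 08, 09, 22, 23 and 24, and 24.73, 18.76, 21.91, 18.03 and 15.61 CPM in BrapcKO 04, 05, 06, 07 and 21. All B1 libraries lay above all B2 libraries, by a margin of 18.03 against 17.91 CPM at the border. The log2 fold change between groups was -0.13 (SE 0.122, interval -0.39 to 0.14, adjusted p = 0.597), and its sign turned in other fits: it was 0.06 without the code and 0.13 with the Y-linked score added.

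Dlx6 (ENSMUSG00000029754.13, plus strand, chr6:6863334-6868568) had the fewest counts of the 10. It had 4.88 and 5.25 CPM in the B1 control libraries 08 and 09, and 9.02, 7.41, 6.89 and 8.75 CPM in BrapcKO 04, 05, 06 and 07. In B2 it had 9.94, 7.16 and 6.78 CPM in control 22, 23 and 24, and 13.6 CPM in BrapcKO 21. Within each code every BrapcKO library lay above every control library, which was so for 1 of 10 markers and, in one direction or the other, for 16.3% of all genes. Across the codes the groups overlapped, because control 22 exceeded BrapcKO 04, 05, 06 and 07. These levels rest on 96 to 383 reads a library.

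Dlx6 rose by 0.70 on the log2 scale (SE 0.148, interval 0.38 to 1.02, adjusted p = 0.0121). The size was alike within B1 (0.66, adjusted p = 0.106) and within B2 (0.77, adjusted p = 0.12). An exact two-sided permutation of the group labels gave p = 0.151 over all arrangements of 5 in 10, and p = 0.0167 over the 60 arrangements that keep the number of each group in each code, the smallest that those can give. Without the title code the value was 0.42 (adjusted p = 0.36). With the title code and a Y-linked score as terms, where 2.24% of all genes passed, it was 0.87 (adjusted p = 0.0405). The call was lost without control 08 (0.69, adjusted p = 0.054) and without BrapcKO 21 (0.66, adjusted p = 0.114), and the 10 leave-one-out values ran from 0.66 to 0.78.

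In flox/ko Cre+ against flox/wt Cre-, where 4.84% of all genes passed, Dlx6 was again the 1 marker called (0.72, adjusted p = 0.0388). In flox/flox Cre+ against flox/flox Cre-, where 0.736% passed, 0 of 10 markers were called in edgeR. Dlx6 alone of the 10 had an unadjusted p under 0.05 there (0.57, adjusted p = 0.276), against 1922 of 14276 genes. The difference between those effects was -0.15 (interval -0.74 to 0.43). A gene on the opposite strand, Dlx6os2, overlaps 104 exon bases (4.38%) of Dlx6. The sources used here do not say whether counting used strand, so the 2 transcripts cannot be told apart over those bases. The same limit holds for Dlx1, where Dlx1as overlaps 335 exon bases (6.21%). It also holds for Prox1 (Prox1os, 133 bases, 1.59%) and Reln (Gm10475, 246 bases, 1.04%). On the same strand, Gm27953 overlaps 104 exon bases (2.16%) of Lhx6, and counting by strand would not separate the 2.

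Striatal projection neurons also express Dlx6. The summed level of 13 measured striatal genes, in the order of the libraries above, was 546.3, 817.5, 1231, 873.6 and 701.5 CPM in control and 951.1, 1144, 1101, 1435 and 1798 CPM in BrapcKO. Control 22 and BrapcKO 21 were the highest of their groups in both that sum and Dlx6. Both values rose in the order control 08, 09, 23 and 22, and in the order BrapcKO 06, 05, 07 and 21. The other libraries lay outside these orders. Control 24 had a lower sum than control 09 with a higher Dlx6. BrapcKO 04 had the lowest sum of its group with its second highest Dlx6. Of the 13 genes, 8 rose and 0 fell (of all 14276 genes, 446 rose), among them Penk, the enkephalin precursor (log2 fold change 1.48, adjusted p = 0.00134), and Rgs9, a striatal regulator of G-protein signalling (1.04, adjusted p = 0.005); 2 rose when the title code was left out, 1 with title code and Y-linked score as terms and 0 with the Y-linked score only. Without BrapcKO 21 it was 3 that rose, 3 without control 08 and 5 without control 23. None of the 13 was at 0 in all libraries. The part of striatal tissue in the Dlx6 values was not tested. The plot of both markers against these sums shows each library.

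**Figure D3:**
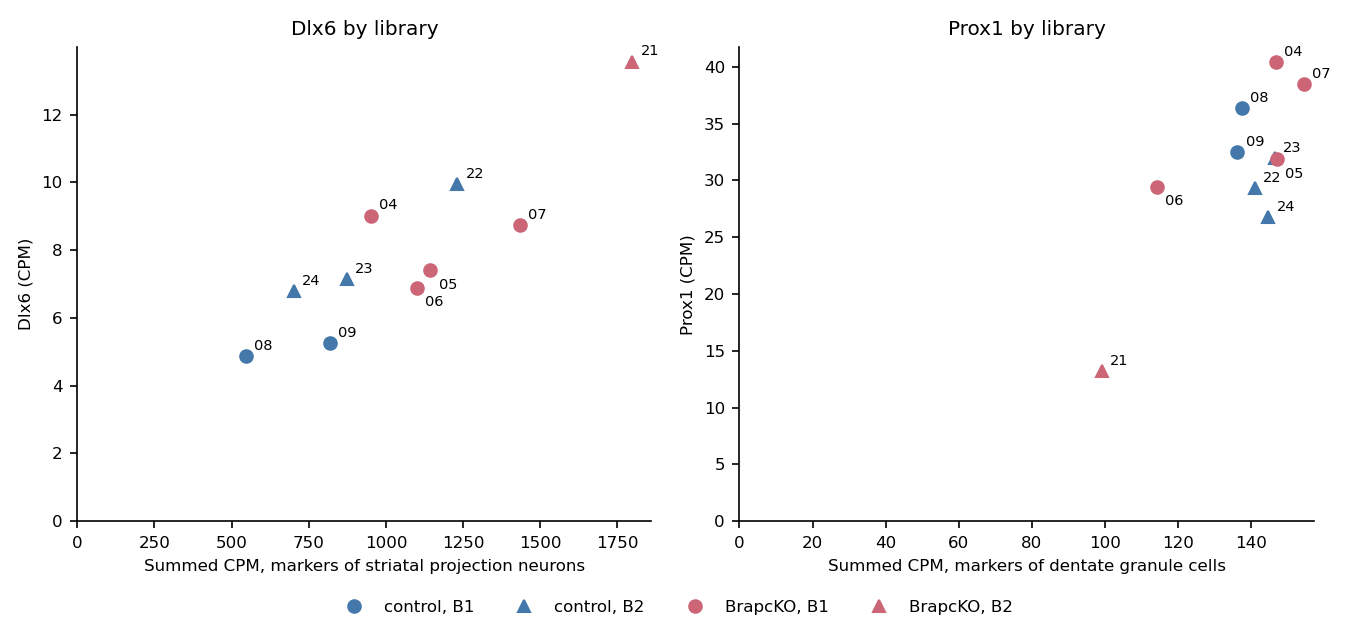
Left, Dlx6 in CPM (vertical) against the summed CPM of 13 striatal projection neuron genes (horizontal); right, Prox1 in CPM against the summed CPM of 6 dentate granule cell genes; each point is 1 library, labelled by its number, with circles for B1 and triangles for B2. BrapcKO 21 is the highest point of the left panel, at 13.6 and 1798, and the lowest of the right panel, at 13.2 and 99.1.

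Erbb4 encodes a receptor tyrosine kinase for neuregulins, present on many parvalbumin and other interneurons. Erbb4 (ENSMUSG00000062209.15, minus strand, chr1:68032186-69108059) had 295, 273, 211, 227 and 182 CPM in control 08, 09, 22, 23 and 24, and 261, 244, 236, 251 and 189 CPM in BrapcKO 04, 05, 06, 07 and 21. All B1 libraries lay above all B2 libraries. In B1 all 4 BrapcKO libraries lay below both control libraries, and in B2 BrapcKO 21 lay between the control libraries. The log2 fold change was -0.17 (SE 0.0788, interval -0.34 to -0.000881, unadjusted p = 0.049, adjusted p = 0.223), and without the title code it was -0.01. Of the 9 genes fixed for the ligands and receptors of this family, 0 passed between groups in edgeR (1, Nrg1, at an unadjusted p under 0.05), 1 fell in DESeq2 and 0 passed in limma-voom. Nrg1, the neuregulin best known as a ligand of ErbB4, had a log2 fold change of -0.32 (adjusted p = 0.079).

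The title code moved more markers than the group did. Between B2 and B1, with group as a term, 6 of 10 markers passed (1 higher, 5 lower), against 25.1% of all genes. The median log2 difference of the 10 was -0.20, and that of all genes was -0.02. Dlx6 was higher in B2 by 0.70 on the log2 scale (adjusted p = 0.00404). Prox1 (-0.66, adjusted p = 0.0367), Sox6 (-0.53, adjusted p = 0.0007), Dlx1 (-0.50, adjusted p = 0.0112), Erbb4 (-0.43, adjusted p = 0.00161) and Adarb2 (-0.39, adjusted p = 0.0099) were lower in B2. Calb2 (0.33, adjusted p = 0.605), Reln (0.08), Lhx6 (0.07) and Pvalb (-0.02, adjusted p = 0.953) did not pass.

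Sox6, Adarb2, Dlx1 and Erbb4 had no overlap at all between the 6 B1 and the 4 B2 libraries, 4 of 10 markers against 19.5% of all genes. The B1 and B2 ranges were 50.1 to 59.4 and 34.3 to 41.3 CPM for Sox6, 57.0 to 74.0 and 46.0 to 51.9 CPM for Adarb2, and 235.9 to 294.9 and 182.1 to 226.9 CPM for Erbb4. The calls of Sox6 and Erbb4 held in all 10 leave-one-out fits. The others were lost without 1 or more libraries: Adarb2 without control 09 (adjusted p = 0.0713), Dlx1 without control 08 (0.052), Dlx6 without BrapcKO 21 (0.052). Prox1 was lost without BrapcKO 21 (-0.22, adjusted p = 0.341) and, by small margins, without BrapcKO 05 (0.051) or control 08 (0.0546), 22 (0.054) or 24 (0.069). The plot of group and code effects sets both terms side by side.

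**Figure D4:**
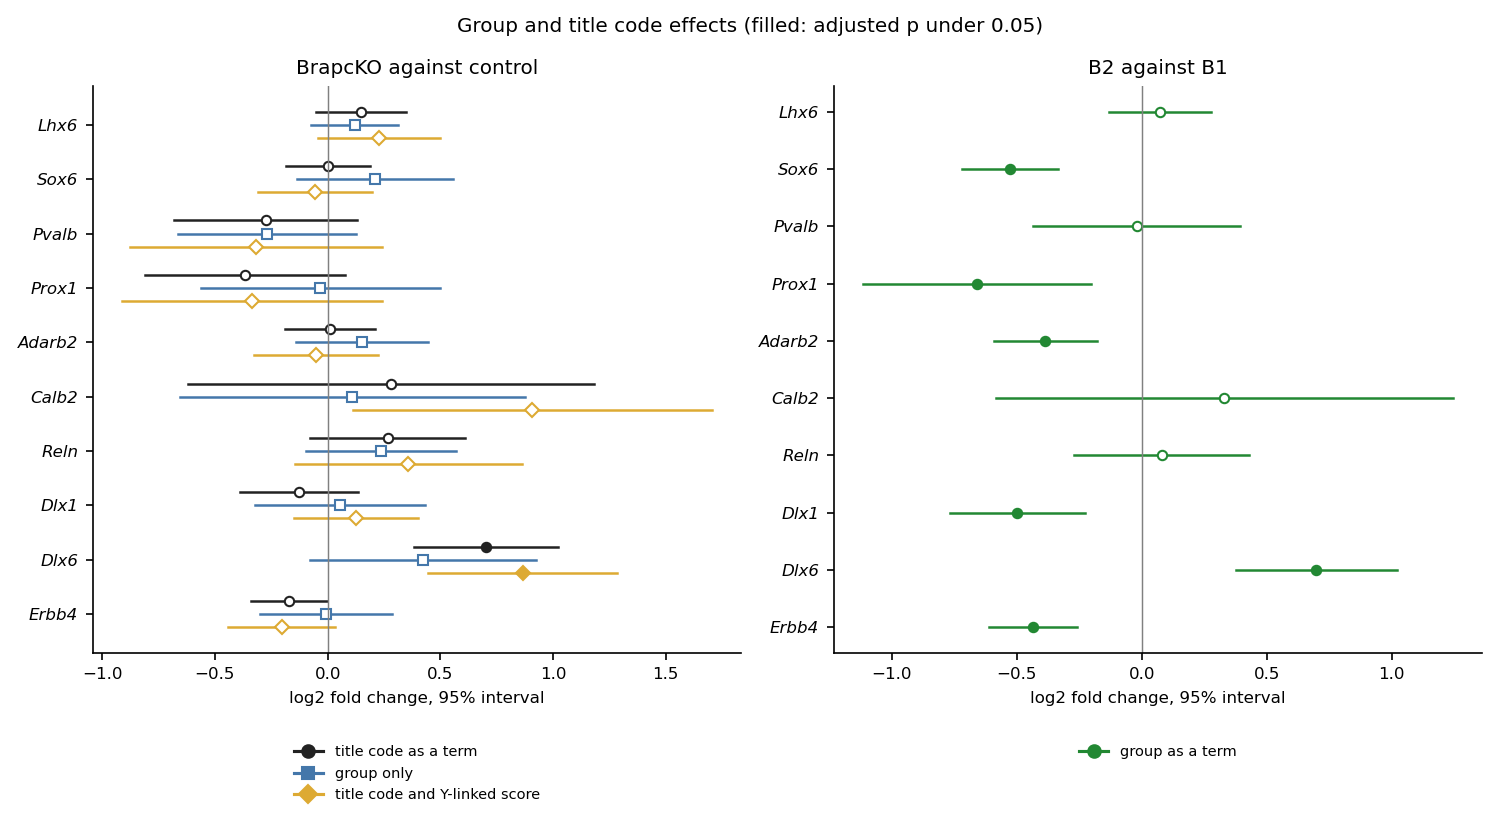
Left, log2 fold change of BrapcKO against control with 95% intervals for each marker from 3 fits (title code as a term, group only, title code and Y-linked score); right, log2 difference of B2 against B1 with group as a term; a filled symbol has an adjusted p under 0.05. Dlx6 is the only filled marker on the left, in 2 of the 3 fits, and 6 markers are filled on the right, 5 of them below 0.

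The markers that were lower in B2 include the longest genes of the 10. Erbb4 spans 1076 kb, Sox6 568 kb and Adarb2 566 kb, while Dlx1, also lower, spans 6 kb and Reln, at 460 kb, did not pass. Over all genes, 71 of the 214 that span more than 500 kb were lower in B2 (33.2%) and 3 were higher (1.4%), with a median log2 difference of -0.21. Of the other 14057 matched genes, 11.4% were lower and 13.5% higher, with a median of -0.02. Long genes also differed between BrapcKO and control. With the title code as a term, 22.9% of the 214 passed, with a median log2 fold change of -0.13. Of the other 14057, 7.85% passed, with a median of 0.01. Total depth was higher in B2, as given above, and the part of library preparation in these values was not tested.

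The 4 markers with no overlap between codes are shown by the 250 bases upstream of their RefSeq start (GRCm38.p6, 5′ to 3′ on the gene's strand), so that their start regions can be compared. RefSeq windows were matched for 8 of the 10 markers, all but Calb2 and Dlx6. Capitals mark matches, on either strand, to TAATTA, the core bound by many homeodomain factors, ACAAT, the core bound by SOX factors, and TGACGTCA, the cAMP response element; no match shown overlaps another. Each window is that of the RefSeq start nearest to the GENCODE start. Sox6 has 6 RefSeq windows, of which 1 is shown. For Dlx1 the RefSeq start is at 71529445 and the GENCODE gene starts at 71528113, so its window lies within the GENCODE gene. The windows are chr13:8202616-8202865 (plus) for Adarb2, chr2:71529195-71529444 (plus) for Dlx1, chr7:116038745-116038994 (minus) for Sox6 and chr1:69108060-69108309 (minus) for Erbb4.
Adarb2: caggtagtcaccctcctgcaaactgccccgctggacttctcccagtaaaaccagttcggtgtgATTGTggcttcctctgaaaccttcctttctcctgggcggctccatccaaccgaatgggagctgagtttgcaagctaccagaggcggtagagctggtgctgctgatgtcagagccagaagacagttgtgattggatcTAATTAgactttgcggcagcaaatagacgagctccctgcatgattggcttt
Dlx1: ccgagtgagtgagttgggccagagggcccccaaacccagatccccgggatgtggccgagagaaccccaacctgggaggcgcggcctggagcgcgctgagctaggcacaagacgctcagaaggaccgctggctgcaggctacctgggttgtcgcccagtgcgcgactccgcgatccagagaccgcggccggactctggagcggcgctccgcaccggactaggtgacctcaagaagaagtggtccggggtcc
Sox6: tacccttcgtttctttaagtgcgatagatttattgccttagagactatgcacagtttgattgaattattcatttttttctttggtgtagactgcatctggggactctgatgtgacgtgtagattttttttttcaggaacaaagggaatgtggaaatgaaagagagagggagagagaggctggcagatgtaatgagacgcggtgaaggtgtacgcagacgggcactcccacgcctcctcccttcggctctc
Erbb4: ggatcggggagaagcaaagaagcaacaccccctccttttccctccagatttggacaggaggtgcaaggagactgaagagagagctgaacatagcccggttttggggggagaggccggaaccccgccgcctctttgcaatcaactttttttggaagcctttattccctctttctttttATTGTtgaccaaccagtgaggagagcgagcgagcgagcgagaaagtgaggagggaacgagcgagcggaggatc

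The 4 windows have little in common. Adarb2 holds 1 TAATTA and 1 ACAAT match, Erbb4 holds 1 ACAAT match, and Dlx1 and the Sox6 window shown hold none of the 3 motifs. Of the 5 other Sox6 windows, 3 hold ACAAT, with 2, 2 and 3 matches, so the result for Sox6 depends on the start taken. Over all 32851 RefSeq windows of the same length, 4.84% held TAATTA, 27.7% held ACAAT and 1.55% held TGACGTCA. Dlx1 was 68% G and C with 22 CpG dinucleotides, Erbb4 54% with 12, Adarb2 52.8% with 7 and Sox6 45.2% with 9, against medians of 52.4% and 6 over all windows. A match is a description of these letters only.

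After group and title code means were removed, the 10 markers were compared pairwise over the 10 libraries. Of 45 pairs, 4 had an unadjusted permutation p under 0.05 and 0 passed after adjustment; the residuals are not fully free values, which makes these p-values somewhat too small. The strongest pair was Reln and Sox6 (Pearson r = -0.848, permutation p = 0.00264, adjusted 0.119; Spearman rho = -0.818, permutation p = 0.00614, adjusted 0.237), and r was -0.719 without the 2 libraries farthest from the median of Reln. Lhx6 and Dlx1 had r = 0.68 (permutation p adjusted to 0.454) and rho = 0.782.

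For each marker, 13263 genes outside the list were searched for the residual pattern most like it over the 10 libraries. The highest r of so many genes can be high through the search alone, and no chance level was computed. The genes found are given as a description only. They were Ctnnb1 for Reln (r = 0.977), Setd2 for Erbb4 (r = 0.978), Dnajc12 for Dlx6 (r = 0.972), Hecw1 for Pvalb (r = 0.967) and Gripap1 for Calb2 (r = 0.961). For Prox1 it was Klhdc9 (r = 0.959), for Sox6 Zc3h13 (r = 0.958), for Adarb2 Pfkfb3 (r = 0.912), for Lhx6 Rab4b (r = 0.900) and for Dlx1 Kdm5c (r = 0.900, rho = 0.661). Of these 10 genes Hecw1 fell between groups (log2 fold change -0.58, adjusted p = 0.00414), while Pvalb did not pass.

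Other genes of the interneuron classes, from lists chosen by function, set the 10 markers in context; counts are of genes that passed in the same fit with the title code. Of 9 genes shared by all GABA neurons, 4 rose and 0 fell, with a median log2 fold change of 0.54. Gad2, a GABA-synthesising enzyme, had 222.4, 219.2, 265.8, 228.0 and 183.9 CPM in control and 418.3, 383.1, 537.0, 515.2 and 635.3 CPM in BrapcKO. The 2 groups did not overlap, and the rise was 1.23 (SE 0.134, adjusted p = 0.000302), kept in each of the 10 leave-one-out fits. Gad1, the other such enzyme, rose by 0.57 (adjusted p = 0.0077; lost without BrapcKO 21). Slc32a1, the vesicular GABA transporter, rose by 0.54 (adjusted p = 0.00868), while its value without the title code was 0.03 (adjusted p = 0.973). The factor Sp9 rose by 0.90 (adjusted p = 0.0145), and the calls of Slc32a1 and Sp9 were both lost without control 08 or control 09. Dlx5, the neighbour of Dlx6, just missed the threshold (0.68, adjusted p = 0.0518). Several of these genes, Gad1, Gad2 and Sp9 among them, are also expressed in the striatum. Of 13 striatal marker genes, 8 rose in these cortex libraries, as given with Dlx6. The part of striatal tissue in the values of the GABA genes was not tested.

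Within the 2 lineages the counts were mixed. Of 5 further medial eminence genes 1 rose, Lhx8, a factor of striatal and basal forebrain cholinergic cells (1.41, adjusted p = 0.0393), and 1 fell, Satb1 (-0.52, adjusted p = 0.0479); neither passed without the title code, and each call was lost in at least 6 of the 10 leave-one-out fits. Of 6 further caudal eminence genes 0 passed in edgeR (2 at an unadjusted p under 0.05), and 0 in DESeq2 or limma-voom.

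Of 13 parvalbumin-class genes 1 rose and 2 fell, with a median of -0.20, and 0 passed without the title code. Tac1, the substance P precursor, rose (1.27, adjusted p = 0.00575); Kcnc2, a fast potassium channel (-0.37, adjusted p = 0.0123), and Vamp1, a synaptic vesicle protein (-0.43, adjusted p = 0.0228), fell. All 3 calls were lost without BrapcKO 21. Of the 13 genes, 2 had a positive log2 fold change. The part of striatal tissue in the rise of Tac1, and in the values of the classes below, was not tested.

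Of 14 somatostatin-class genes 4 rose and 1 fell, with a median of 0.15. Tacr1, the substance P receptor, rose by 1.35 (adjusted p = 0.00172) and Cort, the cortistatin precursor, fell by 2.07 on the log2 scale (adjusted p = 0.00175), both in all 10 leave-one-out fits. Chrna2, a nicotinic receptor subunit of a deep-layer somatostatin class, rose by 1.61 (adjusted p = 0.00658), and neuropeptide Y, Npy, by 1.78 (adjusted p = 0.00855); both calls were lost without BrapcKO 21. Sst itself, named for its role after its values were seen, rose by 0.50 (adjusted p = 0.0301). Without BrapcKO 21, 1 of the 14 rose.

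Of 12 genes of the Vip and Cck classes 3 rose, Tac2 (0.82, adjusted p = 0.0156), Mybpc1 (1.72, adjusted p = 0.0285) and Chat (1.14, adjusted p = 0.0467), and 0 fell. None of the 3 rose without control 09 or BrapcKO 21, and 1 rose without control 08, 23 or 24 or BrapcKO 07. Of 9 Lamp5 and neurogliaform genes 1 rose and 3 fell, with a median of -0.34. Lamp5, a membrane protein of neurogliaform cells and some pyramidal neurons, fell by 1.29 (adjusted p = 0.00134) and Sv2c, a synaptic vesicle protein, rose by 1.13 (adjusted p = 0.000444), both in all 10 leave-one-out fits. Kit (-0.62, adjusted p = 0.0155) and Cplx3 (-0.66, adjusted p = 0.0166) also fell, and without control 08 only Lamp5 did. Of 8 genes of the perineuronal net, the matrix around parvalbumin cells, 1 rose, Vcan (0.45, adjusted p = 0.00705; lost without BrapcKO 21). With the Y-linked score as a further term, Gad2, Tacr1, Cort, Lamp5 and Sv2c passed among the named genes of these lists and the other 16 did not. The plot of the lists shows how each is spread around 0.

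**Figure D5:**
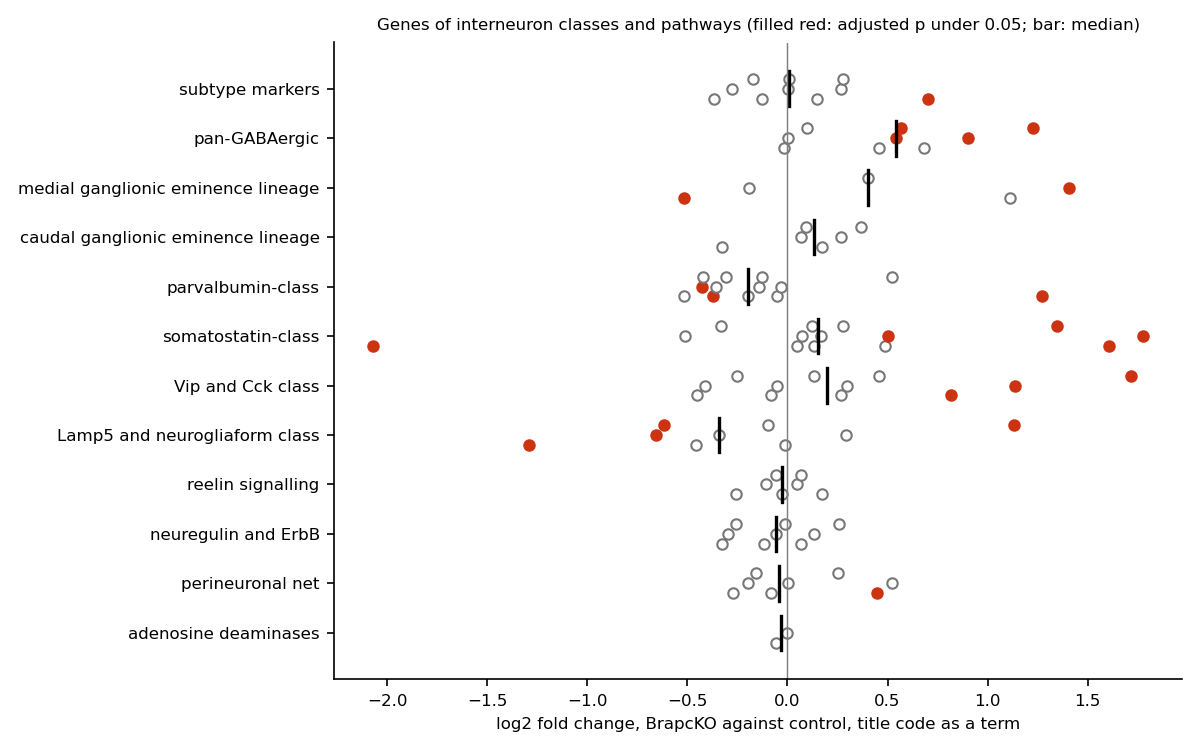
Log2 fold change of BrapcKO against control with the title code as a term (horizontal axis) for the genes of each list (rows); red points have an adjusted p under 0.05, open points do not, and the bar is the list's median. The 10 subtype markers are centred at 0.01 with 1 red point, Dlx6, and the pan-GABAergic genes at 0.54 with 4.

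Markers of other cells were counted in the same fit, where 8.07% of all genes passed. Of 8 reactive glia genes 6 rose, with sums of 253.8 to 288.3 CPM in control and 595.9 to 1890 CPM in BrapcKO; Gpnmb rose by 1.65 (adjusted p = 0.00134) and Osmr by 1.13 (adjusted p = 0.00284). Of 8 genes of cortical excitatory neurons 2 fell, Camk2a (-0.56, adjusted p = 0.0179) and Neurod6 (-0.62, adjusted p = 0.0207), with sums of 2907 to 3587 CPM in control and 2606 to 3152 CPM in BrapcKO. Of 7 measured olfactory bulb and neuroblast genes 3 rose, Th (2.02, adjusted p = 0.00266) and Pbx3 (0.61, adjusted p = 0.0324) among them, with Th kept and Pbx3 lost in 5 of the 10 leave-one-out fits, and with sums of 234.2 to 302.4 and 248.8 to 312 CPM. Of 10 thalamic genes 1 fell, Ramp3 (-1.20, adjusted p = 0.02), with sums of 94.57 to 156.9 and 112.5 to 186.7 CPM. Of 10 oligodendrocyte precursor genes 2 rose, Lhfpl3 (0.59, adjusted p = 0.00819) and Cacng4 (0.52, adjusted p = 0.00951). Without BrapcKO 21, 0 of the excitatory, thalamic and precursor genes passed, and without control 08 or 09 3 of the glial genes did. With title code and Y-linked score as terms, 0 of the excitatory, thalamic and precursor genes, 1 of the olfactory bulb genes and 2 of the glial genes passed. The ranges of the excitatory, olfactory bulb and thalamic sums overlapped between groups. Their part in the values of the interneuron genes was not tested.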

How the data were processed

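Gene counts of 10 libraries of mouse cerebral cortex were used as deposited by the authors; whole-number counts per Ensembl gene came from featureCounts of Subread on mm10 (GRCm38), per the submitters' processing notes. Strand use and gene filters are not stated in the labels. Of 14276 identifiers, 14271 matched GENCODE M21 with the version removed, 13492 of them at the same version; every column was mapped to a sample.

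Counts were scaled by TMM and tested with edgeR 4.0.16 (quasi-likelihood, robust; R 4.3.3) in a model of title code and group, with Benjamini-Hochberg adjustment over all genes and no further filter on low counts. SE is the log2 fold change over the root of F. Alternatives were DESeq2 1.42.0, limma-voom (limma 3.58.1), other scalings, filters and terms, and each library left out; 0 columns were unused. The fits were tested on simulated data. Libraries of a group differed beyond counting noise (chi-square per degree of freedom 7.146 to 96.29), so no column was a copy of another.

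The members and lists were chosen with earlier results of these data known. Named genes are the 10 members, Brap, up to 4 called genes of each interneuron list and up to 2 of each list of other cells by smallest p, and the most similar gene for each member.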

Additional observations from a re-analysis of the deposited data

How the results depend on the processing

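The count of all genes that passed was 1152 in the model of title code and group, 617 with group only, 320 with title code and Y-linked score, 94 with the Y-linked score only, and 406 (without BrapcKO 21) to 1454 (without control 24) on leaving out each library; it was 558 without control 08 and 516 without control 09. The count of interneuron markers that passed was 1, 0 with group only or with the Y-linked score only, and 0 to 1 on leaving out each library, being 0 without control 08 and without BrapcKO 21. Dlx6 was 0.41 with the Y-linked score only (adjusted p = 0.588) and 0.66 in the B1 libraries fitted alone (adjusted p = 0.0893), and in DESeq2 it was 0.71 (adjusted p = 0.000657). Signs turned for markers that passed in none of these fits: Dlx1 was 0.0556 with group only, 0.127 with title code and Y-linked score and 0.365 with the Y-linked score only; Adarb2 was -0.0515 and Sox6 -0.0577 with title code and Y-linked score; Prox1 was 0.0934 and Erbb4 0.0588 with the Y-linked score only; Adarb2 was -0.0347 and Prox1 0.0264 in the B1 libraries alone. On leaving out each library Adarb2 ran from -0.0663 to 0.128, Sox6 from -0.0549 to 0.0372 and Prox1 from -0.575 to 0.0209. The cause was not tested. The count of markers whose effect differed between title codes was 0, and 1 (Prox1) in DESeq2. The count of markers that differed between B2 and B1 was 6, and 4 to 6 on leaving out each library. Scaling by library totals moved the median of all genes from 0.01 to 0.04 on the log2 scale. The difference between title codes could not be fitted without BrapcKO 21, the 1 BrapcKO library of B2. No paired analysis was possible because the groups share no replicate numbers. Dlx6 rests on 96 to 383 reads a library.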
